A study of Rattus norvegicus with 14 samples.

Results

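The 6 genes described here encode muscle proteins that bind titin or the Z-disc or shuttle to the nucleus, and that are known for responding to stretch and load: the ankyrin repeat proteins Ankrd1, Ankrd2 and Ankrd23, the LIM domain proteins Csrp3 and Fhl1, and the actin-binding repeat protein Xirp1. Their members were taken as every probe set whose single gene symbol is 1 of these 6, which gave 9 of the 31042 probe sets on the array that are not manufacturer controls: 2 for Ankrd1, 3 for Fhl1 and 1 for each of the others. All 9 passed the filter on low signals. Probe sets of 1 gene read transcripts of the same gene and are not counted as independent of each other.

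The samples were 14 whole soleus muscles of male Sprague Dawley rats, 1 Affymetrix array each. Tenotomy, the cutting of the tendon, removes the tension on a muscle, and the labels treat it as immobilization. The 4 controls were left muscles of 4 rats, with no treatment named, and control 1 and control 4 came from rats 62 and 61. The 6 short-term muscles were right muscles, from rats 12 and 13 at 1 week after tenotomy, rats 25 and 27 at 2 weeks, rat 32 at 3 weeks and rat 42 at 4 weeks. The 4 long-term muscles were right muscles, from rats 61 and 62 at 6 weeks and 1 rat each at 16 and 22 weeks. Rats 61 and 62 therefore gave both a control and a tenotomized muscle, and at least 2 of the 4 controls are the opposite leg of an operated animal. The number of every tenotomized rat is its week followed by 1 digit. Read that way, controls 2 and 3 carry 16-week numbers. All 4 controls then have numbers of long-term weeks and none of short-term weeks. The labels do not say whether the rats of controls 2 and 3 were operated, and the part of this numbering in any difference was not tested. Every control was a left and every tenotomized muscle a right one, so leg side and tenotomy cannot be told apart in any comparison with control, the legs of rats 61 and 62 included. No rat gave both a control and a short-term array, so the animals differ there as well. Long-term and short-term muscles were all right and all tenotomized, and came from different rats. The labels give no age for any muscle.

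Titin is the molecular spring of the sarcomere. Ankrd1, Ankrd2 and Ankrd23 are a family of muscle ankyrin repeat proteins that bind its N2A region in the I-band and can also enter the nucleus, where they act on transcription. Csrp3 (muscle LIM protein) sits at the Z-disc and also works as a cofactor of myogenic transcription factors, Fhl1 is a LIM-domain-only protein found in a complex with titin, and Xirp1 (Xin) binds actin at the myotendinous junction and in remodelling myofibrils. Soleus is a slow postural muscle under near constant load, which makes it a common muscle for studies of unloading.

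The promoters of members that RefSeq's GRCr8 table holds are shown because myogenic, TEAD, MEF2 and serum response factors, whose short motifs are known, act on many muscle genes. The table held 7 start sites for 4 of the 6 genes: 1 for Ankrd2, 1 for Ankrd23, 2 for Fhl1 and 3 for Xirp1. The first start of each is printed 5′ to 3′ on the gene's strand, from 250 bases before to 50 bases after the start, with capitals for motif matches. The letters searched, on both strands, were the E-box CANNTG bound by myogenic factors, the MCAT element CATTCC bound by TEAD factors, and TATAAA, along with the CArG box of serum response factor and the MEF2 site. None of the matches in the printed sequences overlapped.
Ankrd2 (chr1:250796169-250796468, + strand): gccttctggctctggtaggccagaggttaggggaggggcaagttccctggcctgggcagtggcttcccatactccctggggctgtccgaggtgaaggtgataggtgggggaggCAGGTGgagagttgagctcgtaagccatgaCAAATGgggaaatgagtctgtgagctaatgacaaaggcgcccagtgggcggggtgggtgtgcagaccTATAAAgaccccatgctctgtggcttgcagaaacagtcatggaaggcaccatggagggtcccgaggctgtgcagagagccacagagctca
Ankrd23 (chr9:46274461-46274760, - strand): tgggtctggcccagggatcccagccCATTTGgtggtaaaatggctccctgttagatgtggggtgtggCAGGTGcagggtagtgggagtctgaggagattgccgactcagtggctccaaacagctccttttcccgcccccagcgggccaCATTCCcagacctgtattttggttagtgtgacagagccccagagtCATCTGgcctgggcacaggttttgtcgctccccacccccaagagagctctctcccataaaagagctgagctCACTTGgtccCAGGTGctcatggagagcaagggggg
Fhl1 (chrX:139638246-139638545, + strand): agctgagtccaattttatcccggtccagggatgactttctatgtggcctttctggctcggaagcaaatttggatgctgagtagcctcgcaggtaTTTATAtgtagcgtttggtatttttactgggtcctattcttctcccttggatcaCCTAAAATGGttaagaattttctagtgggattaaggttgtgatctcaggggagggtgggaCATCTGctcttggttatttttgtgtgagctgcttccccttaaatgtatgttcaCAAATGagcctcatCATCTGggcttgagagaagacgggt
Xirp1 (chr8:128634962-128635261, - strand): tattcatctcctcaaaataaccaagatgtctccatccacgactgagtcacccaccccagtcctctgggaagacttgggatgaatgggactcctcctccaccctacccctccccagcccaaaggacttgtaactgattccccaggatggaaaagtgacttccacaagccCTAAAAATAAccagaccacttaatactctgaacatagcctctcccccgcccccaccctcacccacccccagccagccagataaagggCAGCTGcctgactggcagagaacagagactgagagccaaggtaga

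The Ankrd2 window held 2 E-boxes, at -137 and -107 from the start site, and TATAAA at -40. The Ankrd23 window held 5 E-boxes and an MCAT element at -102. The Fhl1 window held 3 E-boxes, a CArG box at -102 and TATAAA on the reverse strand at -156. The Xirp1 window held a MEF2 site at -82 and 1 E-box, at 5 bases after the start-site base. Over all 33469 promoter windows of this length, 72.1% held an E-box, 14.2% an MCAT element, 14.2% TATAAA, 3.29% a MEF2 site and 1.64% a CArG box. The E-box is thus common to most promoters, while the CArG box of the first Fhl1 start and the MEF2 site of the first Xirp1 start are letters that few windows of this length hold. The second Fhl1 start held no CArG box, and the third Xirp1 start held no MEF2 site. A match describes the sequence and not a bound site.

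Signals below are the deposited MAS5 signals after each array was shifted, on the log2 scale, to a common median over the 20334 probe sets tested. They are linear and specific to each probe set. Changes are log2 differences of group means from 1 limma fit to all 14 arrays, with Benjamini-Hochberg adjustment over all probe sets tested and a threshold of 0.05. The median change of all probe sets was not at 0 in this scale: it was -0.14 where short-term muscle was set against control, -0.01 where long-term muscle was, and 0.13 from short-term to long-term muscle. The change relative to that median is given beside the called values. The 3 comparisons share arrays, and each is read on its own.

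Short-term muscle stood apart from both other groups over the whole array. On the first principal component, which held 49.1% of the variance, short-term arrays had scores of -103 to -40.5, with the controls between 43.9 and 54.3 and the long-term arrays between 30.4 and 73. Of all probe sets tested, 39.8% passed the threshold between short-term and control muscle (3030 higher, 5056 lower in short-term) and 38.3% from short-term to long-term muscle (4891 higher, 2906 lower). For long-term against control 0 passed in limma, with 465 (2.29%) at an unadjusted p under 0.05. The split depended on the scaling: 37.5% of the calls in short-term against control were higher, but 59.9% with a common trimmed mean and 25.5% with a common median over all probe sets, and 62.7% of those in long-term against short-term were higher, against 39.1% and 77.2%. Poly-A spike-in signals were 93.7 to 149.8 on the controls, 170.3 to 481.5 on the short-term arrays and 113.6 to 189.1 on the long-term arrays, and the Gapdh 3' to 5' ratio was 1.38 to 2.78, 1.16 to 1.61 and 1.38 to 2.78 in the same order.

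Ankrd1 (cardiac ankyrin repeat protein) was lower in long-term than in short-term muscle by both of its probe sets, and passed the threshold against control in neither group. In the short-term arrays 1367664_at read 568.1 and 430.1 at 1 week, 760.1 and 798.1 at 2 weeks, 302.6 at 3 weeks and 956.1 at 4 weeks. In the long-term arrays it read 142.2 and 205.8 at 6 weeks, 195.5 at 16 weeks and 563.6 at 22 weeks. The 4 controls spanned most of this range, with 170.3, 376.4, 790.9 and 392.1 in controls 1 to 4. The 22-week muscle was the long-term array that overlapped the short-term ones. The second probe set, 1367665_at, read 398.4, 500.2, 557.9, 237.4, 177.7 and 482.0 on the short-term arrays in the same order of rats, 128.4, 148.9, 131.0 and 243.9 on the long-term arrays, and 105.2, 177.4, 399.9 and 290.8 on the controls. Here too the highest long-term value was that at 22 weeks and the lowest short-term value to the 3-week muscle of rat 32.

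Against short-term muscle, long-term Ankrd1 fell by 1.31 on the log2 scale for 1367664_at (SE 0.42, n = 4 and 6, limma adjusted p = 0.0234) and by 1.21 for 1367665_at (SE 0.37, adjusted p = 0.0182). Relative to the median of all probe sets these changes were -1.45 and -1.34. They were the only 2 of the 9 member probe sets past the threshold in this comparison, both lower, where 14.3% of all probe sets tested were called lower. Both calls held under all 5 other scalings and were lost with no filter on low signals (adjusted p = 0.0719 and 0.0565). They also depended on single arrays: the call of 1367664_at was lost without the 6-week array of rat 61 (-1.06, adjusted p = 0.0822) or of rat 62 (adjusted p = 0.0569), the 16-week array (adjusted p = 0.0628) or the 4-week array of rat 42 (adjusted p = 0.0505), and that of 1367665_at without the 6-week array of rat 61 (adjusted p = 0.0511) or the 16-week array (adjusted p = 0.0517). Against control, short-term Ankrd1 differed by 0.66 (SE 0.42, adjusted p = 0.232) and 0.75 (SE 0.37, adjusted p = 0.12). With 1 array left out these ran from 0.28 to 1.01 and from 0.40 to 1.04, and 1367665_at passed without the 3-week array of rat 32 (0.95, adjusted p = 0.0395) or control 3 (1.04, adjusted p = 0.0467). At 2 weeks 1367664_at differed from control by 1.05 (adjusted p = 0.0883), which passed with quantile normalization (1.33, adjusted p = 0.0394), a trimmed mean (1.27, adjusted p = 0.0498) and without control 3 (1.41, adjusted p = 0.0139). Long-term Ankrd1 differed from control by -0.66 and -0.46 (SE 0.47 and 0.41, adjusted p = 1 for both). The log2 SD of the controls, 0.91 and 0.84, was larger than the short-term and long-term group differences from control over all arrays.

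The 2 probe sets of Ankrd1 followed each other over the 14 arrays, with a Pearson r of 0.848 and 0.75 once group means were removed. Markers of other cells moved in the same direction as Ankrd1 between short-term and long-term muscle. In long-term muscle 10 of 10 fibroblast markers and 10 of 10 macrophage markers were called lower, where 15.4% of all genes were. The spike-in signal and Gapdh ratio differed as given above. The part of these markers, of the spike-in signal and of the Gapdh ratio in the Ankrd1 result was not tested. In whole muscle, fewer cells of a type and less RNA per cell cannot be told apart, and this holds for every result here.

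**Figure D1:**
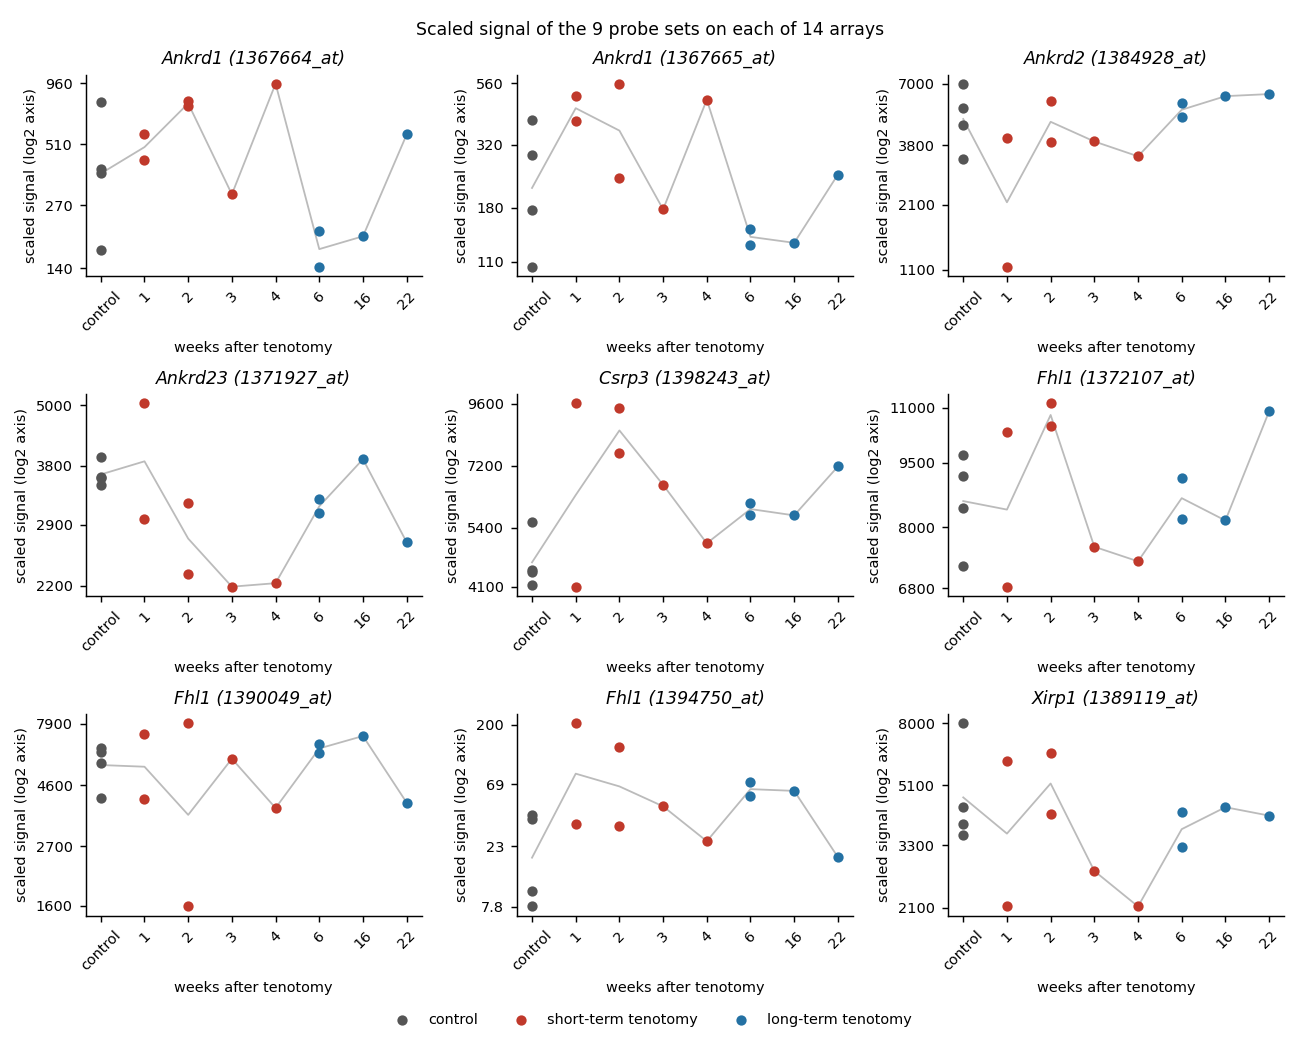
Scaled signal (log2 axis) of the 9 member probe sets against weeks after tenotomy. Each point is 1 array, coloured by group, and the grey line joins the geometric means of each time point. Ankrd1 is lowest at 6 and 16 weeks, the week-1 array of rat 12 is far below the other Ankrd2 arrays, and the 3 highest Csrp3 arrays are at 1 and 2 weeks.

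Ankrd2 (ankyrin repeat protein with high levels in slow fibres) passed the threshold in no comparison, but 1 array was far below all others. Its probe set 1384928_at read 4638, 3316, 6994 and 5466 on controls 1 to 4. In short-term muscle it read 1131 and 4086 at 1 week, 5877 and 3900 at 2 weeks, 3936 at 3 weeks and 3396 at 4 weeks. In long-term muscle it read 5789 and 5034 at 6 weeks, 6180 at 16 weeks and 6308 at 22 weeks. The long-term arrays were close to each other, with a log2 SD of 0.15 against 0.81 in short-term muscle and 0.45 in the controls. The 1131 of rat 12 was less than the next lowest short-term value of 3396 by a wide margin, and its rat 13 partner at the same time lay within the control range.

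Short-term Ankrd2 differed from control by -0.56 (SE 0.33, adjusted p = 0.194) and by -0.24 without the array of rat 12 (adjusted p in the other alternatives from 0.0808 to 0.441). At 1 week the difference from control was -1.20 (adjusted p = 0.0689), which became -0.27 without rat 12. Without rat 13 it was -2.12, and either omission leaves 1 array at that time, with no replicate check. With both arrays the 1-week difference passed on the deposited scale (-1.34, adjusted p = 0.0256) and with a common median over all probe sets (-1.37, adjusted p = 0.0322). Long-term Ankrd2 was above short-term by 0.79 (SE 0.33, adjusted p = 0.0693), or 0.66 relative to the median of all probe sets. This value passed the threshold without the 2-week array of rat 25 (0.95, adjusted p = 0.03), on the deposited scale (0.89, adjusted p = 0.0335) and with a common median over all probe sets (1.00, adjusted p = 0.0194). Over the 10 tenotomized arrays the slope on log2 of the week was 0.31 (adjusted p = 0.0715). It passed without rat 13 (0.38, adjusted p = 0.0449), on the deposited scale (0.36, adjusted p = 0.0289) and with a common median over all probe sets (0.39, adjusted p = 0.0229), and 15.4% of all probe sets passed in that fit. Between week 1 and week 2 Ankrd2 differed by 1.16 (adjusted p = 0.399), a comparison of 2 arrays with 2.

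Ankrd23 (diabetes-related ankyrin repeat protein) had the most uniform controls of the family and also passed the threshold in no comparison as fitted here. Its probe set 1371927_at read 3589, 3945, 3473 and 3611 on the controls, a log2 SD of 0.08. Short-term muscle read 2977 and 5043 at 1 week, 3205 and 2317 at 2 weeks, 2190 at 3 weeks and 2224 at 4 weeks. Long-term muscle read 3057 and 3260 at 6 weeks, 3913 at 16 weeks and 2680 at 22 weeks. Of the 6 short-term arrays, 5 lay below every control and the 1-week array of rat 13 lay above them all. The short-term difference from control was -0.35 (SE 0.20, adjusted p = 0.167), and it passed without rat 13 (-0.52, adjusted p = 0.0101) and with a common median over all probe sets (-0.52, adjusted p = 0.0347). With quantile normalization it was -0.03. At 2 weeks the difference from control was -0.42 (SE 0.21, adjusted p = 0.135), and it ran from -0.85 to -0.13 over the alternatives. That difference passed on the deposited scale (-0.85, adjusted p = 0.00618) and with a common median over all probe sets (-0.65, adjusted p = 0.0206). Long-term Ankrd23 differed from control by -0.19 (SE 0.22, adjusted p = 1) and from short-term by 0.16 (SE 0.20, adjusted p = 0.545), a value whose direction turned under quantile normalization (-0.18) and a trimmed mean (-0.06).

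Csrp3 was the 1 member past the threshold in short-term muscle against control, where it was higher. The Ankrd1 probe sets and Fhl1 1394750_at had larger positive changes there that did not pass. Csrp3 stayed above the controls in long-term muscle without passing the test there. Its probe set 1398243_at read 4427, 4132, 5538 and 4393 on the controls. In short-term muscle it read 4101 and 9613 at 1 week, 9435 and 7625 at 2 weeks, 6587 at 3 weeks and 5018 at 4 weeks. In long-term muscle it read 6059 and 5715 at 6 weeks, 5711 at 16 weeks and 7172 at 22 weeks. The 1-week array of rat 12, low for Ankrd2 as well, was below all controls, while all 4 long-term arrays were above all 4 controls.

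The short-term rise was 0.55 on the log2 scale (SE 0.21, n = 6 and 4, limma adjusted p = 0.0451), or 0.70 relative to the median of all probe sets, and 1 of 9 member probe sets was called where 39.8% of all probe sets were, 14.9% higher. The call was narrow. It was lost on the deposited scale (0.41, adjusted p = 0.0603), with a common median over all probe sets (0.39, adjusted p = 0.136), with no filter (adjusted p = 0.102), with no intensity trend (adjusted p = 0.065), with only the groups compared in the fit (adjusted p = 0.0737), and without any 1 of the arrays of rats 13, 25, 27 and 32 or controls 1, 2 and 4, where adjusted p ran from 0.0588 to 0.109. With rat as a replicate block the value was 0.55 (adjusted p = 0.0444), and 2 members were called rather than 1, the second being the Fhl1 probe set 1394750_at. At 2 weeks alone the rise was 0.89 (adjusted p = 0.0294), where 13.9% of all probe sets were called higher. That call was lost on the deposited scale (0.46, adjusted p = 0.119), with a common median over all probe sets (0.66, adjusted p = 0.0688), with no filter (adjusted p = 0.106) and with no intensity trend (adjusted p = 0.0536). It was also lost without control 1, 2 or 4 (adjusted p = 0.0602, 0.0624 and 0.0541). Without the 2-week array of rat 25 the rise was 0.73, and without that of rat 27 it was 1.04. Each of these leaves 1 array at that time, with no replicate check. At 1 week Csrp3 differed by 0.45 (adjusted p = 0.266), or by 1.07 without rat 12, which leaves only the array of rat 13 at that time. Fibroblast and macrophage markers were higher in the same short-term arrays, and their part in the Csrp3 result was not tested.

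In long-term muscle Csrp3 was 0.42 above control (SE 0.23, adjusted p = 1), 1 of 9 member probe sets with every long-term array above every control, where 0.807% of all probe sets tested had that order (and 1.33% the opposite one, with 0 members). At 6 weeks the difference was 0.36 (adjusted p = 1). From short-term to long-term muscle it differed by -0.14 (SE 0.21, adjusted p = 0.639), and the interval from -0.58 to 0.31 leaves the sign of this difference undetermined. It was 0.08 with a common median over all probe sets.

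**Figure D2:**
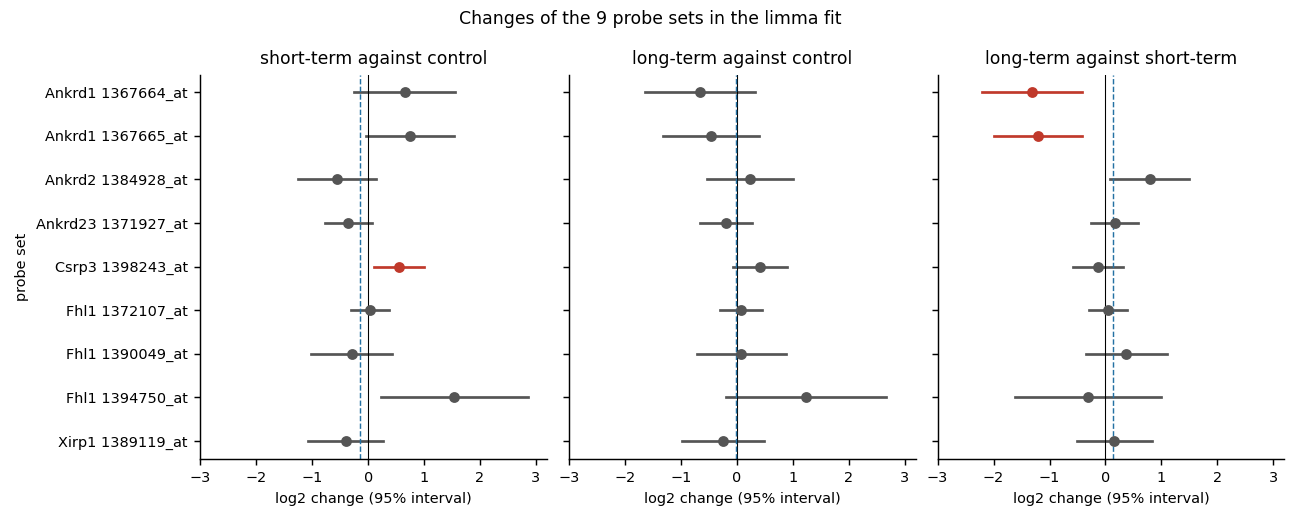
Log2 change of each member probe set with its 95% interval in 3 comparisons. Red marks probe sets past the adjusted p of 0.05, and the dashed blue line is the median change of all 20334 probe sets tested. The red points are Csrp3 in short-term against control and both Ankrd1 probe sets in long-term against short-term.

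Fhl1 (a LIM protein of the sarcomere and nucleus) was read by 3 probe sets that did not all follow each other. The first, 1372107_at, read 8433, 9184, 9702 and 7213 on the controls, 6829, 10310, 10470, 11130, 7595 and 7309 on the short-term arrays and 9134, 8184, 8147 and 10900 on the long-term arrays. Its groups overlapped throughout, with a short-term difference from control of 0.03 (adjusted p = 0.89), a long-term one of 0.07 (adjusted p = 1) and a difference of 0.04 between the tenotomized groups (adjusted p = 0.86). The sign of the first turned on the deposited scale and with a common median over all probe sets, and that of the last with quantile normalization, a trimmed mean or a common 75th percentile. This probe set is near the top of the scale: its deposited signals spanned only 7416 to 9845, where the highest signal of any probe set was 12542, and its scaled value had a Pearson r of 0.899 with the shift that was applied to each array, as a description over 14 arrays. The part of the scaling in its differences was not tested.

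The second Fhl1 probe set, 1390049_at, read 4133, 6368, 6189 and 5622 on the controls, 4081, 7195, 7929, 1593, 5814 and 3776 on the short-term arrays and 6124, 6608, 7090 and 3957 on the long-term arrays. The 2-week array of rat 27 was the low one. Short-term muscle differed from control by -0.29 (SE 0.34, adjusted p = 0.519), a value of 0.00 without rat 27. The third, 1394750_at, was near the filter signal of 21.99, with 7.848, 37.47, 10.32 and 40.3 on the controls (1 of 4 at the floor), 34.04, 204.4, 134.5, 32.87, 46.62 and 25.08 on the short-term arrays and 71.39, 56.2, 61.4 and 18.9 on the long-term arrays. It differed from control by 1.54 (SE 0.62, adjusted p = 0.0571) in short-term and by 1.24 (SE 0.68, adjusted p = 1) in long-term muscle. It passed the short-term threshold with a trimmed mean (1.73, adjusted p = 0.0402), with rat as a replicate block (1.62, adjusted p = 0.0441) and without the array of rat 27 (1.70, adjusted p = 0.0499), of rat 42 (1.78, adjusted p = 0.0369), of control 2 (1.85, adjusted p = 0.0437) or of control 4 (1.89, adjusted p = 0.0394). Between the probe sets the Pearson r over 14 arrays was -0.141 for 1372107_at with 1390049_at, 0.141 for 1372107_at with 1394750_at and 0.449 for 1390049_at with 1394750_at.

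Xirp1 passed the threshold in no comparison. Its probe set 1389119_at read 3553, 3853, 8002 and 4347 on the controls, where the 8002 of control 3 was the highest of all 14 arrays. Short-term muscle read 2121 and 6083 at 1 week, 4153 and 6430 at 2 weeks, 2738 at 3 weeks and 2116 at 4 weeks, and long-term muscle read 4217 and 3262 at 6 weeks, 4349 at 16 weeks and 4093 at 22 weeks. Of the short-term arrays 3 were below all controls and 3 within their range, and long-term arrays lay within them or just below. Short-term muscle differed from control by -0.40 (SE 0.32, adjusted p = 0.334). Long-term muscle differed from control by -0.24 (SE 0.35, adjusted p = 1) and from short-term muscle by 0.16 (SE 0.32, adjusted p = 0.724). The last turned under quantile normalization and a trimmed mean.

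**Figure D3:**
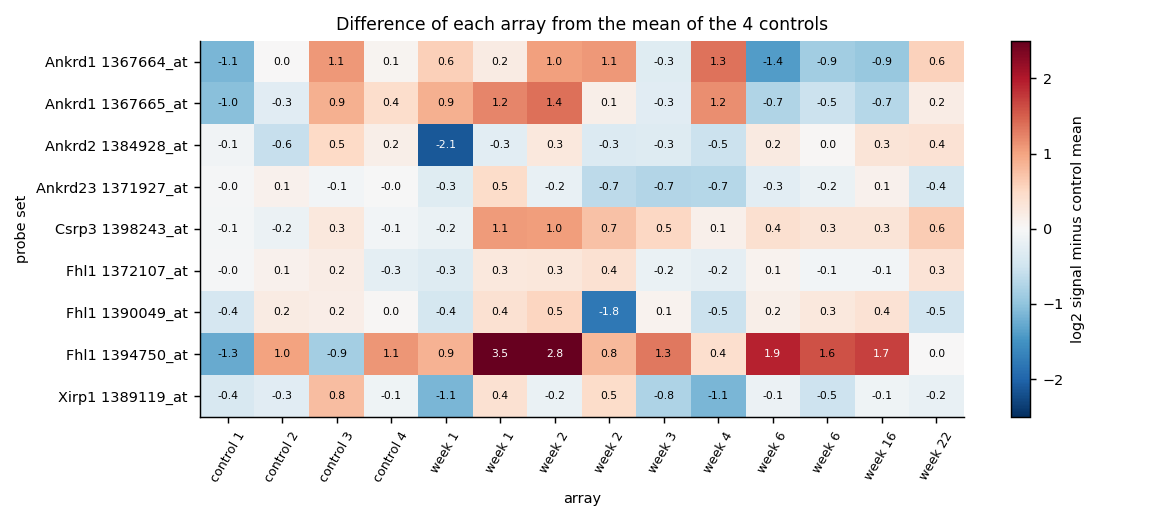
Log2 signal of each array minus the mean of the 4 controls, for the 9 member probe sets in rows and the 14 arrays in columns, ordered by week. Red is higher and blue lower than the controls. The left of the week 1 columns (rat 12) is blue in Ankrd2 and Xirp1, and the next columns to its right (rats 13 and 25) are red in Csrp3 and in the 1394750_at Fhl1 probe set.

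Over time the members did not share 1 course. At 1 week 0 of 9 member probe sets passed in limma (3 at an unadjusted p under 0.05), where 22.4% of all probe sets did and 36.5% had an unadjusted p under 0.05. At 2 weeks 1 of 9 passed, Csrp3, where 35.5% did. At 6 weeks 0 of 9 passed (1 at an unadjusted p under 0.05) and 0 of all probe sets did, with 824 at an unadjusted p under 0.05. Between weeks 1 and 2, 0 of 9 and 0 of all probe sets passed (1 and 2475 at an unadjusted p under 0.05). Over the 10 tenotomized arrays 0 of 9 slopes passed (2 at an unadjusted p under 0.05), where 15.4% of all probe sets passed and 34.8% had an unadjusted p under 0.05, with -0.25 and -0.34 for the 2 Ankrd1 probe sets (adjusted p = 0.301 and 0.0834) and 0.31 for Ankrd2. Weeks 3, 4, 16 and 22 hold 1 array each, so their values above have no replicate check.

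With group means removed, Csrp3 had a Pearson r of 0.824 with Ankrd2, 0.814 with Xirp1 and 0.83 with the first Fhl1 probe set over the 14 arrays of 12 rats, and 0.16 and 0.262 with the 2 Ankrd1 probe sets. With the groups left in, the first 3 were 0.386, 0.444 and 0.709. These are descriptions. The arrays share their scaling shift, with which the first Fhl1 probe set had an r of 0.899, Csrp3 of 0.636, Xirp1 of 0.551 and Ankrd2 of 0.087. Rat 12 was low in Ankrd2, Csrp3 and Xirp1 together. The genes most like each member over the 14 arrays were Slc5a3 for Ankrd1 (r = 0.841 and 0.825 for its 2 probe sets), a sodium and myo-inositol cotransporter. For Ankrd2 they were Synpo2l (0.886), a Z-disc actin-binding protein, Enah (0.885) and Dbndd2 (0.88). For Ankrd23 they were Sirt2 (0.92), a deacetylase, Cystm1 (0.915) and Ivd (0.906). For Csrp3 they were Hspa1a (0.846), an inducible heat shock chaperone, Slc29a2 (0.825) and Bves (0.821). For Xirp1 they were Tnfrsf12a (0.899), the receptor of TWEAK, Atf3 (0.894), a stress-induced transcription factor, and Ripply1 (0.871). For the first Fhl1 probe set they were Tnni1 (0.993), COX1 (0.99) and Myl1 (0.987), and for the second Slc3a1 (0.919). The part of the scaling shift in the values of the first Fhl1 probe set was not tested.

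Rats 61 and 62 gave both legs, so the 6-week muscle can be set against the animal's own control. Csrp3 was higher on the tenotomized side in both, by 0.46 in rat 61 (4393 and 6059) and by 0.37 in rat 62 (4427 and 5715). Ankrd23 was lower in both, by -0.24 and -0.14, and Ankrd2 was higher by 0.08 and 0.12. Ankrd1 went opposite ways: in rat 61 it was lower by -1.46 (392.1 and 142.2) and -1.18 for its 2 probe sets, and in rat 62 higher by 0.27 (170.3 and 205.8) and 0.50. Control 1, from rat 62, was the lowest of the 4 controls for Ankrd1. Xirp1 was lower by -0.04 and -0.12. Of the Fhl1 probe sets, 1394750_at was higher in both rats by 0.82 and 2.84, where the signal of control 1 lay under the floor (not applied to these paired differences), 1390049_at was higher in both by 0.12 and 0.68, and 1372107_at went opposite ways with 0.34 and -0.04. In a limma fit of these 4 arrays with rat as a fixed replicate block, 0 member probe sets passed, with Csrp3 at 0.42 (adjusted p = 0.672). A fit of 4 arrays has little power, so this count says little about the members. Of all probe sets, at most 3 passed in any alternative of long-term against control.

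**Figure D4:**
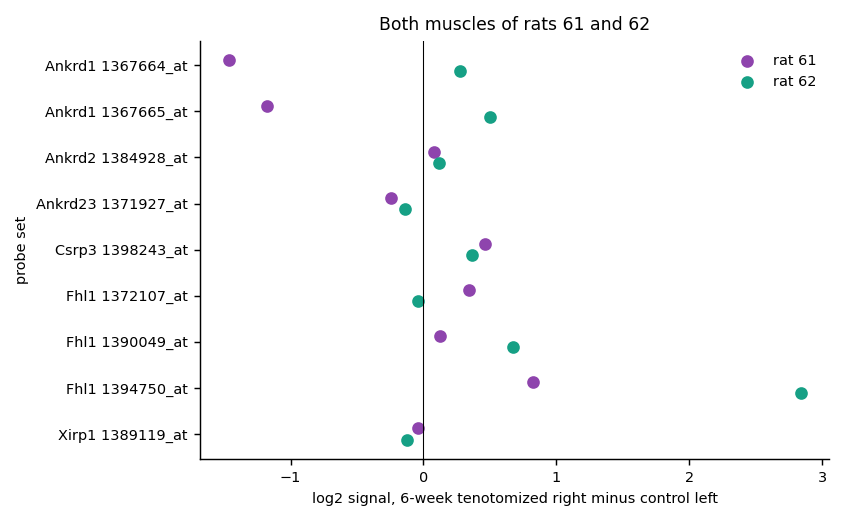
Log2 signal of the 6-week tenotomized right muscle minus the control left muscle of the same rat, for 9 probe sets and 2 rats. The 2 rats lie on opposite sides of 0 for both Ankrd1 probe sets and Fhl1 1372107_at, and on the same side for the other 6 probe sets, with the widest difference for Fhl1 1394750_at in rat 62.

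Genes around the members were counted from lists chosen with earlier results of these data known, so the counts describe the lists and are set beside the share of all genes. Over all 11066 genes 15.6% were higher and 28.8% lower in short-term than in control muscle, with a median change of -0.18. Among partners of titin N2A and the Z-disc, 7 of 24 measured genes were lower and 1 higher (median -0.25). The lower ones included Pdlim1 (-0.75, SE 0.14, adjusted p = 0.000663), a PDZ and LIM protein of stress fibres, and Bag3 (-0.66, adjusted p = 0.001), a co-chaperone of the Z-disc. Palld (palladin), an actin scaffold, was the 1 that rose, by 2.15 (adjusted p = 0.00823). Titin itself had a change of -0.04 (adjusted p = 0.836), and Actn2, the Z-disc crosslinker, of -0.11 (adjusted p = 0.596). The lower count ran from 3 to 11 over the 5 other scalings and was 4 without control 3. From short-term to long-term muscle 7 of the 24 were higher and 1 lower (5 to 18 higher over the 5 other scalings, 11 without rat 13 and 12 without rat 25). Of all genes 27.8% were higher and 15.4% lower in that comparison, so the higher count is near the share of all genes. Palladin fell by 2.27 (SE 0.58, adjusted p = 0.0062) and Capn3, a protease that binds titin, rose by 0.80 (SE 0.20, adjusted p = 0.00575), a call lost under quantile normalization (0.45, adjusted p = 0.0703).

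Of 25 other LIM and ankyrin repeat genes of muscle measured, 11 were lower and 5 higher in short-term muscle (median -0.38). The list holds 7 ankyrin repeat and SOCS box (Asb) genes, which encode substrate receptors of ubiquitin ligases. Of these 5 were measured and all 5 were lower, a subset counted after its values were seen, with Asb14 changed by -1.78 (SE 0.31, adjusted p = 0.000442) and Asb2 by -1.40 (SE 0.20, adjusted p = 0.000114). Of the paralogs of Fhl1, 2 were lower as well, Fhl2 by -0.83 (adjusted p = 0.0138) and Fhl3 by -0.82 (adjusted p = 0.0187), chosen after their values were seen. The paralogs of Csrp3, which encode LIM proteins of smooth muscle and fibroblasts, rose: Csrp2 by 2.01 (SE 0.42, adjusted p = 0.00161) and Csrp1 by 1.09 (SE 0.27, adjusted p = 0.00474). In long-term against short-term muscle the same list had 13 higher and 5 lower, where 27.8% of all genes were higher and 15.4% lower. Its median change was 0.54, against 0.16 for all genes. These counts ran from 6 to 15 higher and 4 to 7 lower over the 5 other scalings. Asb14 at 1.82 and Asb2 at 1.18 were higher, and Csrp2 at -2.27 and Tgfb1i1, a focal adhesion LIM protein, at -1.16 were lower. Over the 5 other scalings the short-term counts ran from 6 to 13 lower and 3 to 7 higher, and the higher count was 3 without the 4-week array of rat 42 or control 1.

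Genes of mechanical load and the YAP and SRF pathways had 4 of 19 lower and 2 higher in short-term muscle (median -0.03). Srf, the transcription factor that binds CArG boxes, fell by 0.70 (SE 0.15, adjusted p = 0.00218), while its coactivator Mrtfa rose by 0.88 (SE 0.21, adjusted p = 0.00441) and Tagln (transgelin), an SRF target of smooth muscle, by 1.12 (adjusted p = 0.0188). Myc, a growth-linked transcription factor, fell by 1.71 (adjusted p = 0.0384), a call that was lost without the array of rat 12, 25 or 42 or control 1, 2 or 3 (adjusted p from 0.0553 to 0.15), and the Tagln call was lost without control 4 (adjusted p = 0.052). The lower count was 2 without rat 12 or control 4 and 1 without rat 42 or control 3, the higher count was 1 without control 4, and over the 5 other scalings they ran from 1 to 6 and from 2 to 4. Of the calcineurin and NFAT genes, which link calcium to slow fibre genes, 7 of 14 were lower and 0 higher (median -0.40; 3 to 9 lower over the 5 other scalings), with Ppp3cc, a catalytic subunit of calcineurin, at -1.22 (SE 0.18, adjusted p = 0.000163) and Rcan2, a calcineurin regulator, at -1.20 (SE 0.21, adjusted p = 0.00058). From short-term to long-term muscle 8 of these 14 were higher and 1 lower (3 to 9 higher over the 5 other scalings), where 27.8% of all genes were higher and 15.4% lower. Against control 0 genes of any of these 4 lists passed in long-term muscle.

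**Figure D5:**
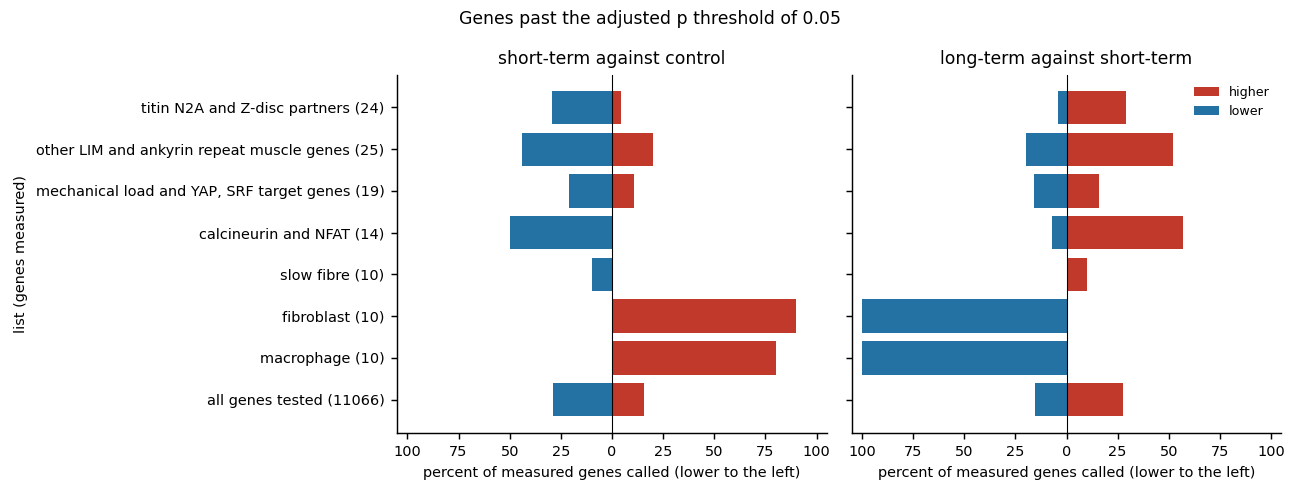
Percent of the measured genes of each list past an adjusted p of 0.05, higher to the right and lower to the left, in short-term against control and long-term against short-term. The bottom bars give the same for all 11066 genes. Most fibroblast and macrophage markers are higher in short-term muscle. The calcineurin list has genes called lower and none higher there, and the ankyrin or LIM list has genes called both ways, more of them lower.

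The tissue label held by its markers. Summed signals of 8 genes of skeletal muscle identity were 50180 to 67760 in controls, 47690 to 72280 in short-term and 59220 to 73810 in long-term muscle. A sum follows the brightest genes of a list and moves little with the others. Of these 8 genes 1 was called lower in short-term muscle, Pygm at -0.69 (limma adjusted p = 0.00158), and 0 higher. Pygm was higher by 0.67 in long-term than in short-term muscle. In short-term muscle 1 of 10 slow fibre genes was lower. Of 12 fast fibre genes 5 were higher (8 without control 1, 1 without control 4 and 3 to 8 over the 5 other scalings) and 1 lower, and of 13 genes of regenerating or developing muscle 5 were higher and 2 lower. Fibroblast markers rose in 9 of 10, with Postn at 3.65 (adjusted p = 0.000405) and Thy1 at 3.36 (adjusted p = 0.000549), and their summed signal was 10660 to 16210 in controls, 33210 to 65060 in short-term and 4833 to 17580 in long-term muscle. Macrophage markers rose in 8 of 10, with Fcer1g at 2.11 and Cd68 at 2.11, and sums of 1521 to 2838, 4193 to 8863 and 1450 to 2959. No marker of either list lay at the floor on all arrays of a group. Tendon markers rose in 4 of 6, and endothelial, smooth muscle and adipocyte lists had 0 of 9, 2 of 10 and 0 of 6 higher and 1, 0 and 1 lower. The smooth muscle count was 0 without control 4, and 1 to 3 over the 5 other scalings. The lower count was 2 for endothelium without rat 42 and 2 for adipocytes without rat 32.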

How the data were processed

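The deposited table holds 1 linear intensity per probe set and array, which the authors computed with MAS5, per the submitters' processing notes. The scaling target, software version and detection calls are not given in the sources used here. Biotin-labelled cRNA was made from total RNA, per the labels' protocols. Arrays give no read depth, so the number of arrays sets the precision.

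All 14 arrays were used. The 57 control probe sets were left out of 31099. Signals were taken to log2 and shifted to a common median. Testing was limited to probe sets with 4 or more arrays over a signal of 21.99, the 40th percentile of all signals pooled; arrays were shifted again to a common median over the 20334 tested, and values under the pooled 25th percentile (9.704) were raised to it. limma 3.58.1 (R 4.3.3) compared groups, and time points with 2 arrays (lmFit, eBayes with an intensity trend), and a slope on log2 of the week was fitted over the 10 tenotomized arrays. Each p-value sets a difference against the spread between muscles. The fit takes each array as independent, while rats 61 and 62 are in 2 groups each. Those rats are the same animals in both groups, and rat was therefore also fitted as a block (consensus correlation 0.32 between arrays of 1 rat). Symbols came from the platform annotation, updated through gene numbers to GRCr8: 20826 probe sets had 1 symbol, 436 several and 9780 none. In lists a gene was read by its brightest probe set, by mean log2 signal. The script was tested on simulated data.

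The members and lists were chosen with earlier results of these data known. The genes named are the members, up to 2 genes per list and direction with the largest called change, and the 3 genes most correlated with each member. Alternatives were 5 scalings, no filter, no floor, an offset of 16, 1 probe set per gene, no intensity trend, only the groups compared, rat as a block, and each array left out.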

Additional observations from a re-analysis of the deposited data

Results flagged for a closer look

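Ankrd2 was marked for 1 array far from the rest of its group. The 1-week short-term array of rat 12 read 1131, the next lowest of the 6 short-term arrays read 3396, and the gap on the log2 scale was 0.667 of the group's whole range. It was 1 of 27 groups of arrays examined, and chance flags about 5% of such groups. The same rat was low for Xirp1 and Csrp3, with 2121 and 4101.

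Ankrd1 was marked because long-term and short-term tenotomy differed from each other in the fit itself, by -1.312 for 1367664_at (adjusted p = 0.0234) and -1.205 for 1367665_at (adjusted p = 0.0182). Of the 4 long-term arrays, 3 lay below all 6 short-term arrays by both probe sets, and the 22-week array lay among them.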

How the results depend on the processing

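Of 967 values of the members recomputed under alternatives, 856 kept their direction and their side of the threshold, 29 lost the threshold, 28 gained it and 54 changed sign, none of the last with a call. The cause was not tested for any change below, except that leaving out an array or testing 1 probe set per gene leaves fewer arrays or features. The count of member probe sets called in short-term against control, 1, was 0 on the deposited scale, with no filter, with no intensity trend and with only the groups compared, and 2 with a trimmed mean and with rat as a replicate block (0 to 2 with 1 array left out). In long-term against short-term it was 2, and 0 with no filter, 1 with 1 probe set per gene (0 to 3). At 1 week it was 0, and 1 on the deposited scale, with a common median over all probe sets and with quantile normalization (0 to 1). At 2 weeks it was 1, and 2 with quantile normalization, 3 with a trimmed mean, 0 with no filter and no intensity trend (0 to 2). For the slope it was 0, and 1 on the deposited scale and with a common median over all probe sets (0 to 1), and between weeks 1 and 2 it was 0 (0 to 1).

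All probe sets called were 8086 in short-term against control (5138 with 1 probe set per gene, 6448 to 8454 with 1 array left out), 0 in long-term against control (3 with no filter), 7797 in long-term against short-term (5047 with 1 per gene, 5775 to 8158), 4563 at 1 week (2953 with 1 per gene, 1433 to 3980), 7213 at 2 weeks (4437 with 1 per gene, 3209 to 7728), 0 at 6 weeks (4 with no filter, 0 to 27) and 0 between weeks 1 and 2 (1 on the deposited scale and with no intensity trend, 5 with quantile normalization, 3 with a trimmed mean, 75 with no filter, 0 to 1735). For the slope 3131 were called (5624 with a common median over all probe sets, 1713 with quantile normalization, 1084 with no filter, 155 to 4414).

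Signs turned for uncalled values. For Fhl1 1372107_at the change was -0.107 (deposited scale) and -0.137 (common median) in short-term against control, -0.039, -0.042 and -0.183 (75th percentile, quantile, trimmed mean) in long-term against short-term, 0.047, 0.033 and 0.174 (the same) at 1 week, and -0.094 (deposited) at 2 weeks. For Fhl1 1390049_at it was 0.058, 0.176 and 0.184 at 1 week. In long-term against short-term Csrp3 was 0.075 (common median), Ankrd23 -0.177 and -0.062 and Xirp1 -0.100 and -0.068 (quantile, trimmed mean). Ankrd23 was -0.059 and -0.084 at 1 week (deposited, common median), Xirp1 -0.279 and -0.083 at 2 weeks, and Ankrd2 0.059, 0.071 and 0.180 at 2 weeks (75th percentile, quantile, trimmed mean). With 1 array left out, the ranges that crossed 0 were as follows. In short-term against control they were -0.052 to 0.104 for Fhl1 1372107_at and -0.459 to 0.004 for 1390049_at. In long-term against control they were -0.018 to 0.132 and -0.060 to 0.262 for these and -0.371 to 0.019 for Xirp1. In long-term against short-term they were -0.049 to 0.110 for Fhl1 1372107_at and -0.546 to 0.126 for 1394750_at. At 1 week they were -0.294 to 0.466 for Ankrd23, -0.164 to 1.066 for Csrp3, -0.329 to 0.265 and -0.431 to 0.387 for Fhl1 1372107_at and 1390049_at, and -1.139 to 0.381 for Xirp1. At 2 weeks they were -0.337 to 0.255 for Ankrd2, -1.788 to 0.528 for Fhl1 1390049_at and -0.170 to 0.461 for Xirp1. A lone array left at a time point was assumed to vary like the others, and no rat block could be fitted to the slope, where each rat has 1 array.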
